A study of Homo sapiens with 8 samples.

Results

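Osteopontin, its receptor CD44 and a set of matrix proteins were followed in the human cell line CFPAC-1, which derives from a pancreatic ductal adenocarcinoma. The members are 10 genes, SPP1, CD44, SPARC, FN1, TNC, POSTN, TGFBI, VCAN, BGN and SPOCK1, out of 58870 genes in the table. They were picked by symbol after an earlier look at this contrast, because SPP1 had the smallest p-value and because SPARC and FN1 went in opposite directions. Member values are therefore given as a description, without a test. Of the 10 members, 8 passed the filter on low counts and 2, POSTN and BGN, did not.

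RNA sequencing covered 2 groups with 4 samples each. One group carried an empty vector and the other a transgene for overexpression of ADRA2A, the alpha-2A adrenergic receptor, which couples mainly to Gi and lowers cyclic AMP. All samples were grown in IMDM with 10% serum and antibiotics for 72 hours and received no drug. The labels give neither the promoter of the transgene nor whether a group was 1 clone, and they do not say whether the samples of a group were separate cultures. The p-values below measure only the spread between these samples, which may be technical.

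Library totals lay between 14427035 and 17528915 counts. ADRA2A itself had 0 counts in all 4 empty-vector libraries and 112 to 172 counts in the ADRA2A libraries. The epithelial markers EPCAM, KRT8, KRT18, KRT19, KRT7, CDH1 and CFTR summed to between 11707 and 12263 CPM in the empty-vector libraries and between 11409 and 12512 CPM in the ADRA2A libraries, where CPM is the count relative to a library size scaled by edgeR's TMM factors. Over all tested genes edgeR called 21.6% higher and 21.1% lower at an adjusted p under 0.05. Of the 6 epithelial markers tested, 2 (EPCAM and KRT19) were called higher and 3 (KRT7, CDH1 and KRT18) lower. The largest of these differences were log2 fold changes of -0.43 ± 0.03 for KRT7 and -0.33 ± 0.03 for CDH1 (SE), while KRT18 passed in 9 of 14 alternatives. CFTR, the chloride channel of duct cells, had only 4 to 20 counts in a library. Several members are best known from stroma, so markers of other cells were measured too. Of 9 fibroblast markers 2 passed the filter, and all 9 together summed to 3.54 to 4.16 CPM with the empty vector and 2.84 to 3.73 CPM with ADRA2A. The 2 were LUM, with 7 to 25 counts per library, and ACTA2, with 18 to 38 counts. COL3A1, a main collagen of fibroblasts, was at 0 in the empty-vector libraries and had at most 1 count with ADRA2A. The collagen gene COL1A1 was not among the 9 markers. It stood far above their sum and fell from 78.4 ± 1.93 to 23.9 ± 1.22 CPM (SD, 4 libraries each). In bulk RNA, fewer cells of a type and less RNA per cell cannot be told apart. The 6 macrophage markers summed to between 1.87 and 2.23 CPM and between 1.89 and 2.78 CPM, with AIF1 and CD163 at 0 in every library. Most of that sum was CD14, at 1.56 ± 0.24 and 1.93 ± 0.32 CPM (SD, 4 libraries each). The 4 endothelial markers summed to 2.05 to 2.71 CPM and 2.64 to 3.35 CPM. In that sum PECAM1 rose from 0.773 ± 0.300 to 2.44 ± 0.30 CPM (SD, 4 libraries each; adjusted p in edgeR = 8.12e-05). KDR fell from 1.23 ± 0.06 to 0.482 ± 0.157 CPM (SD, 4 libraries each; adjusted p in edgeR = 0.00234), and VWF had 3 to 4 counts with the empty vector and 0 to 1 with ADRA2A. The part of these other markers in the values below was not tested.

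Matricellular proteins are secreted into the extracellular matrix, where they bind integrins, CD44 and growth factors and alter adhesion and migration. Osteopontin, encoded by SPP1, is a phosphorylated glycoprotein that binds integrins through an RGD motif and also binds CD44, the receptor for hyaluronan. In pancreatic tumours fibronectin, tenascin-C, periostin, versican and biglycan are known mostly as products of the desmoplastic stroma, although carcinoma cells can make some of them.

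The promoters of the pairs of members furthest apart are shown first, since these genes went in opposite directions in the same cells. Promoters of 9 of the 10 members matched by symbol, all except SPOCK1. Each sequence holds the 250 bases before the gene start in RefSeq on GRCh38.p14, 5′ to 3′ on the strand of the gene. Motif positions count from that RefSeq start. The gene bounds given further on come from GENCODE and reach into the windows printed here. Capitals mark every exact match, on either strand, to 6 motifs. Variant forms of a motif, such as other forms of the TATA box, were not searched and stay unmarked. The letters searched were TGACGTCA for the cAMP response element and TGACTCA for AP-1 factors. Those for RUNX factors were TGTGGT and those for SP1 were GGGCGG. The TATA box was searched as TATAAA, and the SMAD palindrome as GTCTAGAC. SPP1 and SPARC were higher with ADRA2A, and FN1 and TNC were lower. The windows are SPP1 at chr4:87975464-87975713 on the plus strand, SPARC at chr5:151686916-151687165 on the minus strand, FN1 at chr2:215436069-215436318 on the minus strand and TNC at chr9:115118158-115118407 on the minus strand.
SPP1: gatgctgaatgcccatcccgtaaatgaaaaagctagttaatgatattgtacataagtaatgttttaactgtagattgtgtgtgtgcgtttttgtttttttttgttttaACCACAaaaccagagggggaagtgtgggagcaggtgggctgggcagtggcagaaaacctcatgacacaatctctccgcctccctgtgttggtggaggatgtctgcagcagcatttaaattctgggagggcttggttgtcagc
SPARC: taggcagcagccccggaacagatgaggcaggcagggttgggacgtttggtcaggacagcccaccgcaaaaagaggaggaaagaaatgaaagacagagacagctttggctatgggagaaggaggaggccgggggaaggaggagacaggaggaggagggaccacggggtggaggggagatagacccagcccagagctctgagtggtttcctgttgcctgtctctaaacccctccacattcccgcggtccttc
FN1: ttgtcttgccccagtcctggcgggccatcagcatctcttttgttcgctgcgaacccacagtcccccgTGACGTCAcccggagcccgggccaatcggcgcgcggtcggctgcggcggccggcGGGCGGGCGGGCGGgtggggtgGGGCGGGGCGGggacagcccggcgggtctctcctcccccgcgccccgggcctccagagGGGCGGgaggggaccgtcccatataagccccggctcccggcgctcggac
TNC: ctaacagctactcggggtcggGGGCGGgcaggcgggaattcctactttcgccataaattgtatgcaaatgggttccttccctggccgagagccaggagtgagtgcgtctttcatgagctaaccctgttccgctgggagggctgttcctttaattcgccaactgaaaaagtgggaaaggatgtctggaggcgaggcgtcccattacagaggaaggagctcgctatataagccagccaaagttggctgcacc

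FN1 was the one member, of 9 with a promoter in the table, that held the palindromic cAMP response element, the DNA element bound by CREB. Its match spans bases 183 to 176 before the start. The same letters occur in 1.65% of all 35116 promoters of that length. The FN1 window also holds 6 overlapping or separate matches to the SP1 letters, which occur in 42.6% of promoters and in 6 of the 9 member promoters. In the SPP1 promoter the only capitals are a RUNX match on the opposite strand, 142 to 137 bases before the start, and 11.0% of promoters hold those letters. RUNX factors are known regulators of osteopontin in bone. The SPARC window holds none of the 6 motifs, and that of TNC holds only an SP1 match, 229 to 224 bases before the start. The AP-1 letters occur in 4.20% of all promoters, the TATA letters in 10.7% and the SMAD palindrome in 0.182%. Letters that match say nothing of binding in these cells, which was not measured.

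SPP1 was the member with the largest difference. SPP1 (ENSG00000118785.14) lies on chromosome 4 from 87975667 to 87983532 of GRCh38, plus strand, and its canonical transcript has 7 exons. It stood at 106, 103, 92.7 and 104 CPM in empty-vector replicates 1 to 4. In ADRA2A replicates 1 to 4 it stood at 647, 688, 659.7 and 609 CPM. The lowest ADRA2A library was far above the highest empty-vector library, and the replicates of each group lay close together. The means were 101 ± 5.89 and 651 ± 32.9 CPM (SD, 4 libraries each), a log2 fold change of 2.68 ± 0.05 (SE), or 6.43-fold. These values rest on 1512 to 1812 counts per library with the empty vector and 9345 to 11521 counts with ADRA2A. By mean CPM, SPP1 was ranked 2256 among the tested genes in the empty-vector cells and 162 in the ADRA2A cells. By fitted log2 fold change SPP1 was number 18 from the top of the 14785 tested genes, and 0.399% of them had a larger absolute value.

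CD44, the receptor that binds osteopontin and hyaluronan, was expressed at the same order in both groups. CD44 (ENSG00000026508.18; chromosome 11, 35138882 to 35232402, plus strand) stood at 464, 469, 483 and 478 CPM in the empty-vector libraries and at 472, 493, 479 and 479 CPM in the ADRA2A libraries. The groups overlapped throughout. The means of 474 ± 8.56 and 481 ± 8.78 CPM (SD, 4 libraries each) gave a log2 fold change of 0.02 ± 0.03 (SE). The table gives 1 value per gene, so variant exons of CD44, which are set by alternative splicing, were not measured. Within a library the ratio of SPP1 to CD44, both in CPM per kilobase of canonical transcript, lay between 0.668 and 0.796 in the empty-vector libraries and between 4.42 and 4.86 in the ADRA2A libraries.

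**Figure D1:**
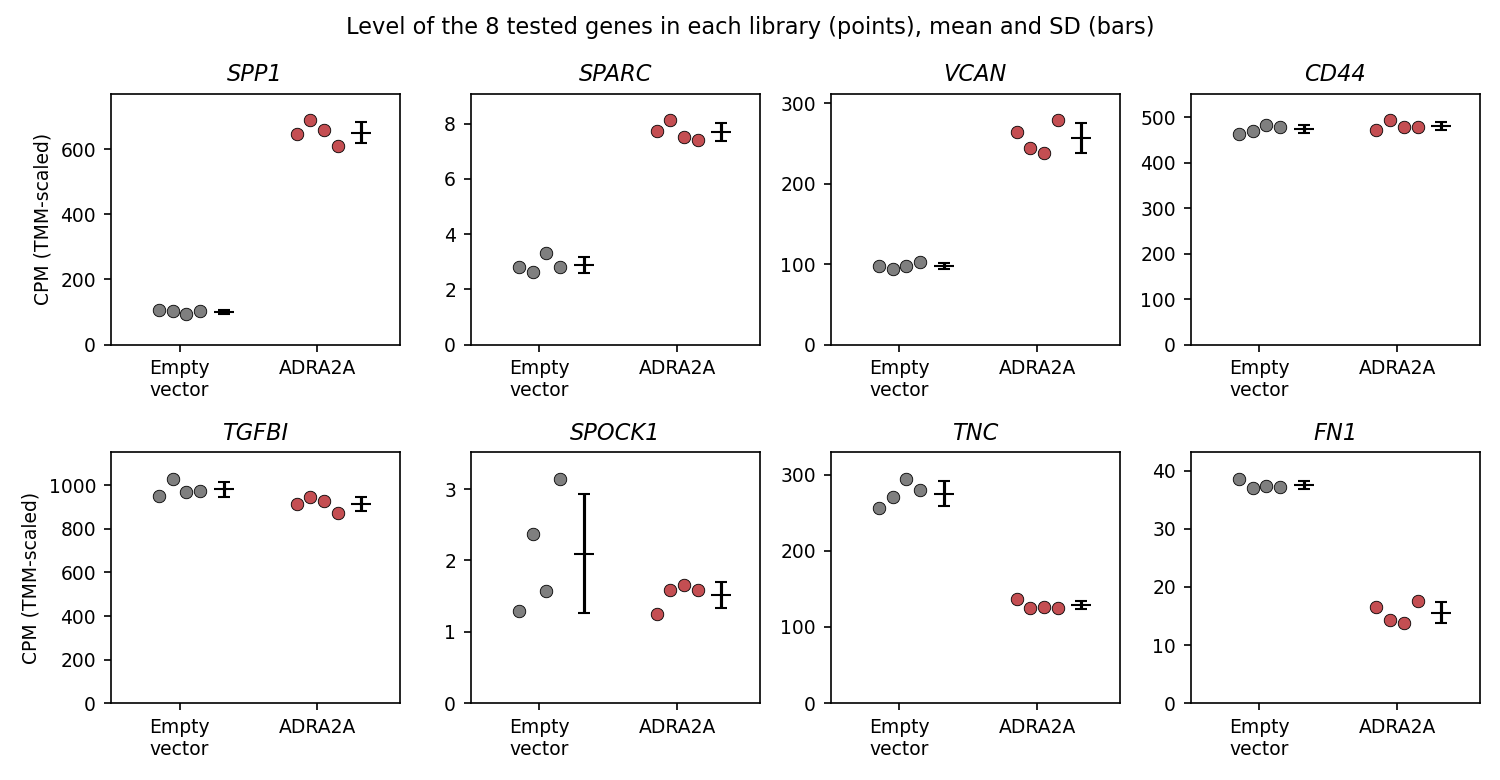
TMM-scaled CPM (vertical axes, each from 0) of the 8 members that passed the filter, in the 4 empty-vector libraries (grey) and the 4 ADRA2A libraries (red), with the mean and SD beside them. The groups do not overlap for SPP1, SPARC, VCAN, TGFBI, TNC and FN1, and they do for CD44 and SPOCK1.

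SPARC and VCAN were also higher with the transgene, a small matrix-binding glycoprotein and a large proteoglycan. SPARC (ENSG00000113140.11; chromosome 5, 151661096 to 151686975, minus strand) encodes osteonectin, which binds collagen and calcium. It stood at 2.81, 2.65, 3.31 and 2.81 CPM with the empty vector and at 7.75, 8.12, 7.50 and 7.40 CPM with ADRA2A. All 4 ADRA2A libraries were above all 4 empty-vector libraries, but the gene was scarce in both, with 39 to 57 and 112 to 131 counts per library. The means of 2.90 ± 0.29 and 7.69 ± 0.32 CPM (SD, 4 libraries each) gave a log2 fold change of 1.40 ± 0.14 (SE), or 2.64-fold.

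VCAN (ENSG00000038427.16; chromosome 5, 83471618 to 83582303, plus strand) encodes versican, a chondroitin sulfate proteoglycan that binds hyaluronan. It stood at 98.2, 93.4, 97.8 and 102 CPM with the empty vector and at 264, 244, 238 and 278 CPM with ADRA2A. The means were 97.9 ± 3.52 and 256 ± 18.5 CPM (SD, 4 libraries each), and the log2 fold change was 1.39 ± 0.05 (SE), or 2.62-fold. VCAN thus differed in proportion nearly as much as SPARC.

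Fibronectin and tenascin-C went the other way. FN1 (ENSG00000115414.19; chromosome 2, 215360440 to 215436073, minus strand) encodes fibronectin, the main ligand of the integrin alpha 5 beta 1. It stood at 38.6, 37.1, 37.4 and 37.2 CPM with the empty vector and at 16.6, 14.3, 13.8 and 17.6 CPM with ADRA2A. The empty-vector libraries were nearly identical, with a coefficient of variation of 1.85%, while the ADRA2A libraries varied by 11.7% and all lay below them. Whether the spread of FN1 differed between the groups was not tested. The means of 37.6 ± 0.69 and 15.6 ± 1.83 CPM (SD, 4 libraries each) gave a log2 fold change of -1.27 ± 0.07 (SE), so that FN1 was 2.42-fold lower. Counts were 546 to 659 per library with the empty vector and 216 to 278 with ADRA2A.

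TNC (ENSG00000041982.16; chromosome 9, 115019575 to 115118207, minus strand) encodes tenascin-C, a hexameric glycoprotein that modulates adhesion to fibronectin. It stood at 256, 270.3, 294 and 280.3 CPM with the empty vector and at 136, 125, 126 and 125 CPM with ADRA2A. Every ADRA2A library lay below every empty-vector library. The means of 275 ± 16.3 and 128 ± 5.30 CPM (SD, 4 libraries each) gave a log2 fold change of -1.10 ± 0.04 (SE), so that TNC was 2.15-fold lower.

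TGFBI and SPOCK1, which lie close to each other on chromosome 5, differed little or not beyond their spread. TGFBI (ENSG00000120708.17; 136028988 to 136063818, plus strand) encodes a matrix protein named for its induction by TGF-beta, which binds integrins and collagen. It stood at 953, 1029.6, 968 and 973 CPM with the empty vector and at 915, 948, 927 and 871 CPM with ADRA2A. The ADRA2A libraries all lay below the empty-vector libraries, and the nearest libraries of the groups were empty-vector replicate 1 and ADRA2A replicate 2. The log2 fold change was -0.10 ± 0.03 (SE). SPOCK1 (ENSG00000152377.14; 136975298 to 137598379, minus strand) encodes testican-1, a proteoglycan of the SPARC family. It stood at 1.29, 2.38, 1.57 and 3.14 CPM with the empty vector and at 1.25, 1.58, 1.66 and 1.58 CPM with ADRA2A. With 18 to 48 counts per library the groups overlapped. Its log2 fold change of -0.44 ± 0.28 (SE) went to -0.18 without empty-vector replicate 4, the library with the highest value.

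The stromal members POSTN and BGN were at or near 0. POSTN (ENSG00000133110.15; chromosome 13, 37562583 to 37598844, minus strand), which encodes periostin, had 0 counts in all 8 libraries. A count of 0 allows up to 3 counts, or 0.171 to 0.208 CPM depending on the library, for counting error only. BGN (ENSG00000182492.16; chromosome X, 153494980 to 153509546, plus strand), which encodes the small proteoglycan biglycan, had 3, 3, 0 and 0 counts with the empty vector and 1, 7, 1 and 4 with ADRA2A. It overlaps HAUS7, a gene on the opposite strand with 111 to 229 counts per library, and the use of strand in counting is not given in the sources used here. Because BGN did not pass the filter, a difference between the groups was not tested.

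Of the 8 tested members, 6 had groups without overlap between libraries, and 3 of these were higher and 3 lower with ADRA2A. The same held for 39.2% of all 14785 tested genes, 19.7% being higher and 19.5% lower. The members were chosen on the same contrast, so nothing is read from their count. Their median log2 fold change was -0.04, beside 0.00 over all tested genes, and their median absolute log2 fold change was 1.19, beside 0.18.

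Levels of different genes were compared in CPM per kilobase of the canonical transcript. In the empty-vector cells TGFBI was highest at 362 ± 12.3, followed by CD44 at 87.2 ± 1.58, SPP1 at 64.9 ± 3.77 and TNC at 32.4 ± 1.92 (SD, n = 4). VCAN at 7.93 ± 0.28, FN1 at 4.48 ± 0.08, SPARC at 0.839 ± 0.083 and SPOCK1 at 0.434 ± 0.174 came after them. In the ADRA2A cells SPP1 was at the head with 417 ± 21.1, above TGFBI at 338, with libraries from 321 to 349.7, and CD44 at 88.5 ± 1.62. VCAN at 20.8 ± 1.50 then stood above TNC at 15.1 ± 0.62, and SPARC at 2.23 ± 0.09 above FN1 at 1.85 ± 0.22, with SPOCK1 last at 0.315 ± 0.038. Among all tested genes, SPP1 went from percentile 92.5 to 99.1 of the per-kilobase levels, VCAN from 51.7 to 75.7 and SPARC from 12.2 to 24.4. TNC went from percentile 84.2 to 68.6 and FN1 from 38.1 to 21.7. So 3 pairs changed places in addition to SPP1 passing CD44, and no 2 neighbours in either order had overlapping libraries. The SPARC to FN1 ratio per kilobase lay between 0.174 and 0.215 in the empty-vector libraries and between 1.02 and 1.38 in the ADRA2A libraries. The VCAN to TNC ratio lay between 0.229 and 0.264 and between 1.30 and 1.53. Transcript length is that of 1 annotated isoform, and FN1, TNC, VCAN and CD44 are all known for alternative splicing.

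**Figure D2:**
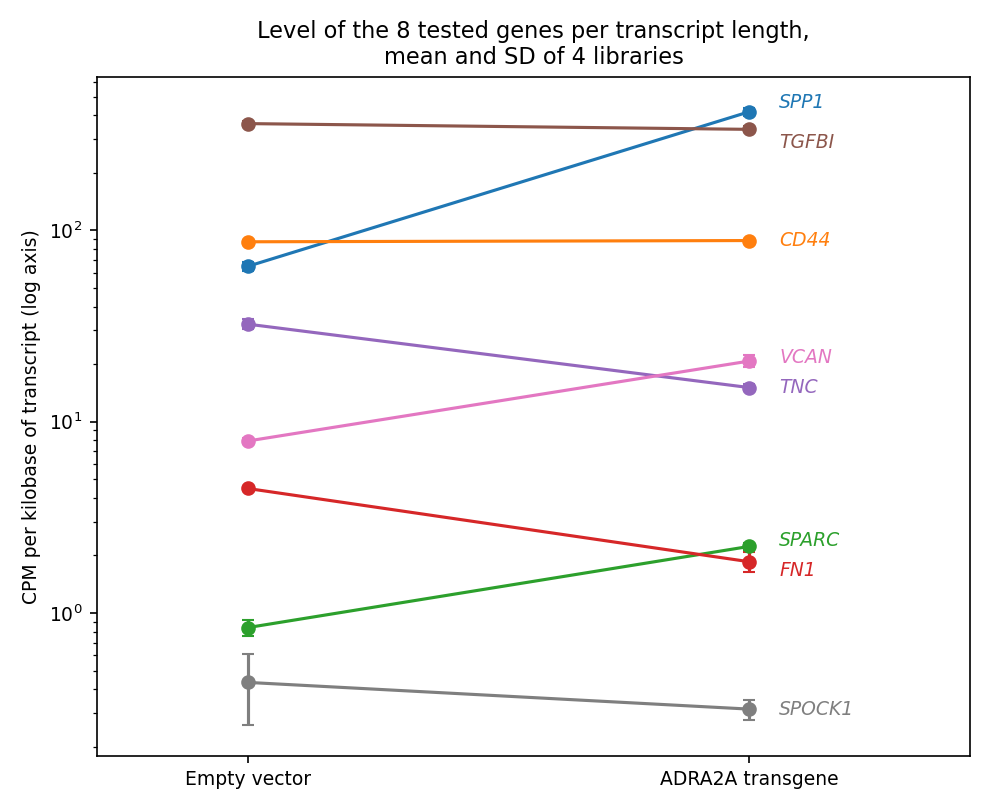
Mean level of the 8 tested members in CPM per kilobase of canonical transcript (vertical log axis) in empty-vector and ADRA2A cells, with error bars for the SD over 4 libraries. SPP1 goes from 64.9 to 417 and passes CD44 and TGFBI, VCAN passes TNC, and SPARC passes FN1.

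Genes beside the members on the chromosome were looked at to see whether whole stretches differed. For each tested member the 10 tested genes on each side were taken, and their median log2 fold change lay between -0.11 (around CD44) and 0.15 (around FN1). Around SPP1 the median was 0.01, with 5 genes higher, 2 lower and 13 not past the threshold in edgeR's quasi-likelihood test. Around CD44, 2 genes were higher, 9 lower and 9 not past it. Around each of the other tested members 3 to 7 were higher and 3 to 5 lower. Over all tested genes 21.6% were higher and 21.1% lower. The next tested genes to SPP1, NUDT9 and PKD2, had log2 fold changes of -0.08 and 0.41. Around SPARC the median was 0.02 and around VCAN -0.10. FN1 was lower while its neighbours had a median slightly above 0, and 1 of them reached -2.82. The neighbourhoods of TGFBI and SPOCK1 share most of their genes.

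**Figure D3:**
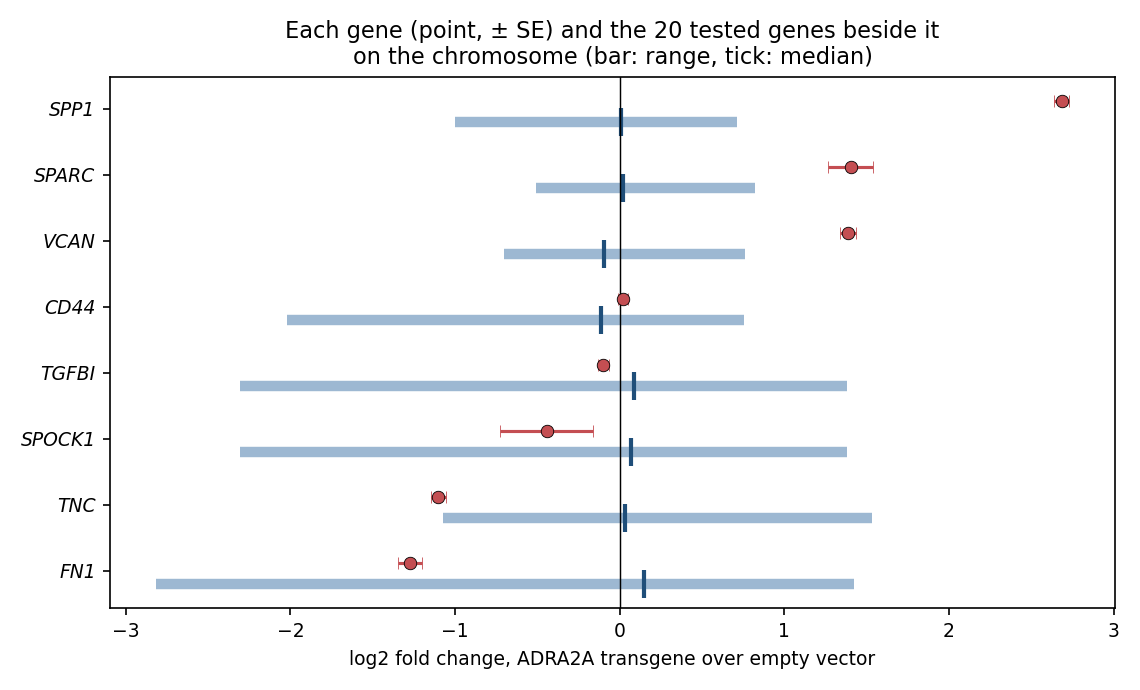
Fitted log2 fold change (horizontal axis) of the 8 tested members (red points, bars for the SE) above the range (blue bar) and median (dark tick) of the 20 tested genes nearest to each on the chromosome. SPP1, SPARC and VCAN lie above the whole range of their neighbours, TNC lies just below its range, and FN1 lies within it.

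Relatives of the members were mostly too scarce to test. Of 26 relatives 10 had 0 counts in all 8 libraries and 7 were tested, and 5 were lower and 0 higher by edgeR's quasi-likelihood test with an adjusted p-value under 0.05, beside 21.1% lower and 21.6% higher over all tested genes. Their median log2 fold change was -0.46, beside 0.00 over all tested genes. At an unadjusted p-value under 0.05, 1 relative was higher, and with DESeq2 the count was again 0. The 1 relative was TNXB, a relative of TNC. Its log2 fold change was 0.70 ± 0.29 (SE, with edgeR's adjusted p = 0.0629) on 9 to 29 counts per library. The bone and tooth phosphoproteins of the osteopontin family, IBSP, DMP1, DSPP and MEPE, which form a cluster just before SPP1 on chromosome 4 from 87608529 to 87846814, had 0 counts in all libraries. SMOC1, a calcium-binding relative of SPARC, fell from 2.22 ± 0.80 to 0.111 ± 0.080 CPM (SD, 4 libraries each; adjusted p in edgeR = 6.53e-07). Its 144 counts with the empty vector and 7 with ADRA2A, each relative to the TMM-scaled library totals, gave a ratio of 20.1. The 95% exact interval of that ratio, for counting error only, was 9.52 to 50.9. SPOCK3, or testican-3, fell by 0.65 ± 0.18 on the log2 scale (SE, with edgeR's adjusted p = 0.0072). FSTL1, a further SPARC relative, had 304 ± 16.0 and 318 ± 5.06 CPM (SD, 4 libraries each; adjusted p in edgeR = 0.185), and it was called higher when empty-vector replicate 2 was left out.

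The CCN proteins are matricellular regulators of growth factor signalling, and CCN1 and CCN2 are known as targets of YAP. CCN1 fell from 403 ± 14.7 to 259 ± 6.09 CPM (SD, 4 libraries each), a log2 fold change of -0.64 ± 0.03 (SE, with edgeR's adjusted p = 1.70e-11). CCN2 fell from 87.8 ± 1.56 to 64.5 ± 3.17 CPM (SD, 4 libraries each; adjusted p in edgeR = 1.15e-07). CCN3 had a log2 fold change of -0.46 ± 0.18 (SE, with edgeR's adjusted p = 0.0436), and passed in 9 of 14 alternatives. Its edgeR adjusted p-value was 0.158 without empty-vector replicate 4, and it also lost the call without empty-vector replicate 2, without ADRA2A replicate 3 or 4, and with DESeq2 (adjusted p = 0.0571).

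Receptors for osteopontin and fibronectin did not move together. Of 11 adhesion receptor genes 9 were tested, and 4 were higher and 3 lower by edgeR's quasi-likelihood test with an adjusted p-value under 0.05, beside 42.7% of all tested genes called in either direction. Their median log2 fold change was 0.08. ITGA5, the alpha chain of the classical fibronectin receptor, rose from 10.0 ± 1.26 to 32.5 ± 0.93 CPM (SD, 4 libraries each), a log2 fold change of 1.70 ± 0.08 (SE, with edgeR's adjusted p = 2.49e-12). ITGB3, which pairs with the alpha V chain in a receptor for osteopontin and vitronectin, rose from 11.6 ± 1.46 to 33.8 ± 2.25 CPM (SD, 4 libraries each). The log2 fold change of ITGB3 was 1.54 ± 0.09 (SE, with edgeR's adjusted p = 2.32e-11). ITGA5 was higher in cells in which FN1, a ligand of alpha 5 beta 1, was lower. ITGB3 was higher in cells in which SPP1, a ligand of alpha V beta 3, was higher. A link between these receptor chains and ligands was not tested.

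The common partner chains of these integrins changed little. ITGB1, the partner of alpha 5, had 3199 ± 129 and 3433 ± 38.1 CPM (SD, 4 libraries each), a log2 fold change of 0.10 ± 0.03 (SE, with edgeR's adjusted p = 0.00745). ITGAV, the partner of beta 3, had 257 ± 9.95 and 233 ± 15.5 CPM (SD, 4 libraries each), a log2 fold change of -0.14 ± 0.04 (SE, with edgeR's adjusted p = 0.015), and passed the threshold in 11 of 14 alternatives. ITGA4, whose product binds fibronectin and osteopontin and is best known from leukocytes, fell from 1.48 ± 0.22 to 0.471 ± 0.178 CPM (SD, 4 libraries each; adjusted p in edgeR = 0.000401). ITGB8, an alpha V partner that activates latent TGF-beta, fell by 0.40 ± 0.05 on the log2 scale (SE, with edgeR's adjusted p = 7.61e-07). ITGB6, the epithelial alpha V partner that binds fibronectin and tenascin, had 91.7 ± 5.48 and 92.0 ± 2.15 CPM (SD, 4 libraries each; adjusted p in edgeR = 0.943). Per kilobase, ITGB1 stood at 856 and 919 CPM in the groups, whereas ITGA5 stood at 2.35 and 7.64 and ITGB3 at 1.95 and 5.69.

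**Figure D4:**
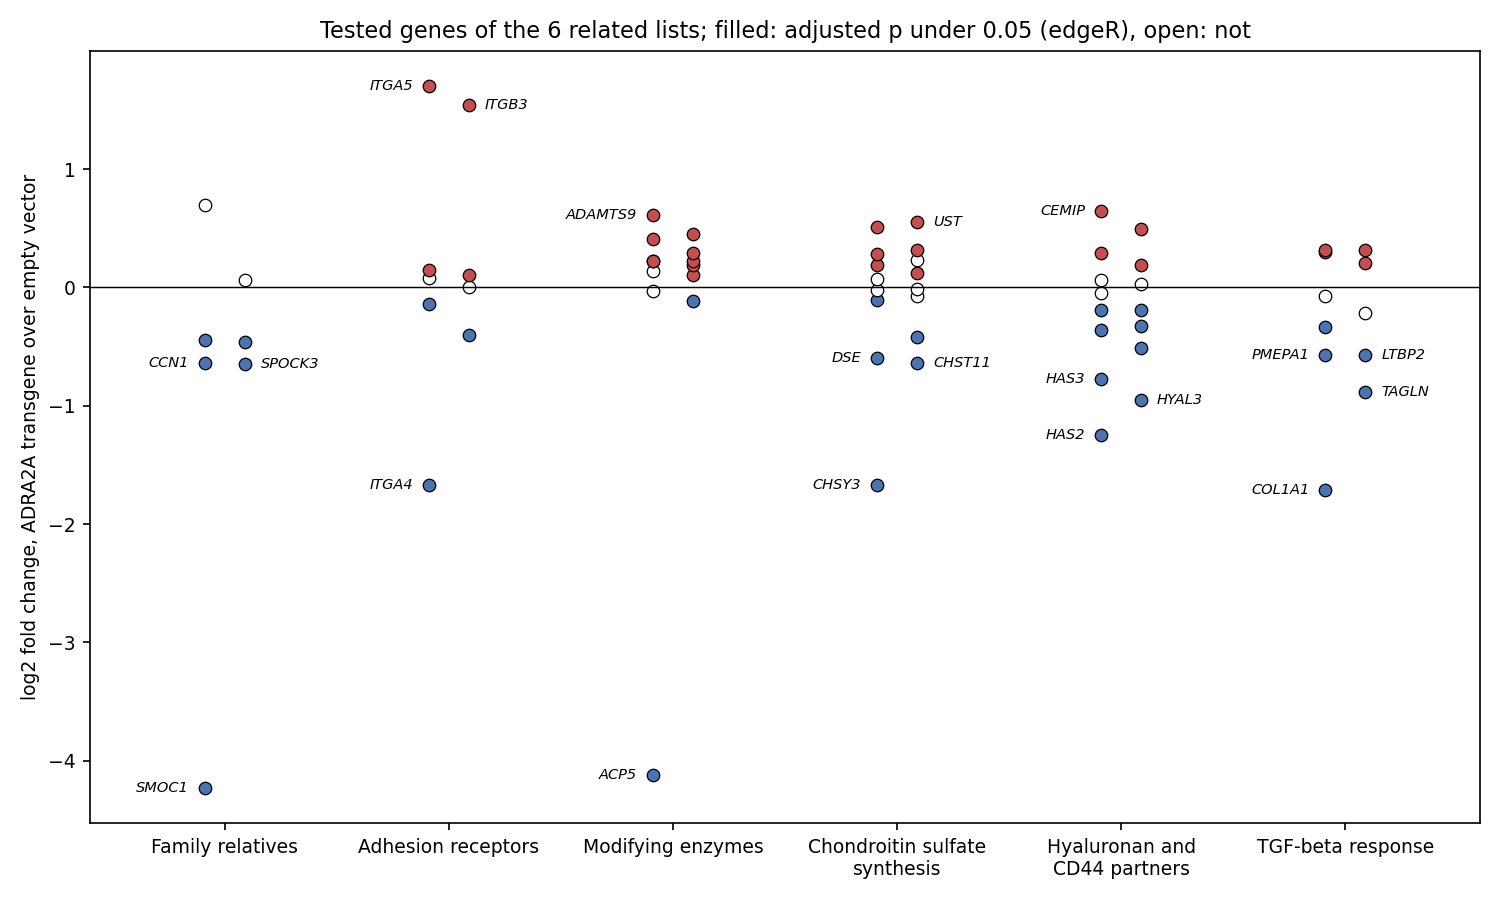
Fitted log2 fold change (vertical axis) of each tested gene in 6 lists around the members. Filled points had an adjusted p-value under 0.05 with edgeR (red higher, blue lower with ADRA2A) and open points did not. ITGA5 and ITGB3 lie highest, and the fitted values of SMOC1 and ACP5 rest on 7 counts each over the ADRA2A libraries.

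Another list held enzymes that phosphorylate, cross-link or cleave the member proteins. Of 19 such genes 13 were tested, and 9 were higher and 2 lower by edgeR's quasi-likelihood test with an adjusted p-value under 0.05, where all tested genes gave 21.6% higher and 21.1% lower. The median log2 fold change of those tested was 0.22. MMP7, matrilysin, which cleaves osteopontin, rose from 1355 ± 81.6 to 1858 ± 43.8 CPM (SD, 4 libraries each), a log2 fold change of 0.46 ± 0.04 (SE, with edgeR's adjusted p = 4.42e-09). ADAMTS9, a protease of versican, rose by a log2 fold change of 0.61 ± 0.08 (SE, with edgeR's adjusted p = 7.79e-06). ACP5, the tartrate-resistant phosphatase that can dephosphorylate osteopontin, fell from 2.08 ± 0.39 to 0.108 ± 0.089 CPM (SD, 4 libraries each; adjusted p in edgeR = 3.14e-07). Its 132 counts against 7, each relative to the TMM-scaled library totals, gave a ratio of 18.4, with a 95% exact interval from 8.70 to 46.8. HTRA1, a serine protease of matrix proteins, had a log2 fold change of 0.41 ± 0.14 (SE, with edgeR's adjusted p = 0.0247), with adjusted p-values of 0.0092 to 0.0799 among the alternatives.

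Chondroitin sulfate chains are carried by VCAN, BGN, SPOCK1 and some forms of CD44. Of 17 genes for their synthesis 16 were tested, and 6 were higher and 5 lower by edgeR's quasi-likelihood test with an adjusted p-value under 0.05, beside shares of 21.6% and 21.1% among all tested genes. The median log2 fold change of those tested was 0.03. All 17 together summed to 590 to 608 CPM with the empty vector and 629 to 661 CPM with ADRA2A. CHPF, among those called higher, rose from 113 ± 6.47 to 161 ± 3.48 CPM (SD, 4 libraries each; adjusted p in edgeR = 7.59e-09). CHSY3, a chain polymerase, fell from 3.45 ± 0.26 to 1.07 ± 0.39 CPM (SD, 4 libraries each; adjusted p in edgeR = 2.38e-05), and CHST11, a 4-O-sulfotransferase, fell by 0.64 ± 0.07 on the log2 scale (SE, with edgeR's adjusted p = 3.66e-07). DSE, the dermatan sulfate epimerase, had a log2 fold change of -0.60 ± 0.21 (SE, with edgeR's adjusted p = 0.0292), which passed in 6 of 13 alternatives. UST, a 2-O-sulfotransferase, had a log2 fold change of 0.55 ± 0.18 (SE, with edgeR's adjusted p = 0.0169) and passed in 11 of 14. The count of 5 lower genes went down to 2 when single libraries were left out (empty-vector replicate 1 or ADRA2A replicate 1, 3 or 4) and to 3 without empty-vector replicate 3.

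The other ligand of CD44, hyaluronan, is made by the HAS enzymes. Of 16 genes of hyaluronan metabolism and CD44 function 15 were tested, and 4 were higher and 8 lower by edgeR's quasi-likelihood test with an adjusted p-value under 0.05. Among all tested genes 21.6% were higher, which is near the share in this list, and 21.1% lower. The median log2 fold change over these 15 genes was -0.19. HAS2 fell from 6.10 ± 0.59 to 2.58 ± 0.87 CPM (SD, 4 libraries each), a log2 fold change of -1.25 ± 0.20 (SE, with edgeR's adjusted p = 3.87e-05). HAS3 fell from 60.9 ± 5.11 to 35.5 ± 1.73 CPM (SD, 4 libraries each; adjusted p in edgeR = 3.34e-09). CEMIP, which takes part in hyaluronan breakdown, rose by a log2 fold change of 0.65 ± 0.15 (SE, with edgeR's adjusted p = 0.00133). HYAL3, a hyaluronidase relative, had a log2 fold change of -0.95 ± 0.31 (SE, with edgeR's adjusted p = 0.0174) on 10 to 52 counts per library, and passed in 10 of 13 alternatives. ESRP1 and ESRP2, epithelial splicing factors that act on CD44 variant exons, had log2 fold changes of -0.19 ± 0.04 and -0.19 ± 0.06 (SE, with edgeR's adjusted p = 0.000652 and 0.0165), and ESRP2 passed in 11 of 14 alternatives.

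TGF-beta is a known inducer of FN1, TNC, VCAN, SPARC and TGFBI, and 11 of 13 response genes were tested. The other 2 are not reported here. In edgeR's quasi-likelihood test 4 were higher and 5 lower at an adjusted p-value under 0.05, and all tested genes gave 21.6% and 21.1%. The median log2 fold change of those tested was -0.22. COL1A1, the alpha 1 chain of type I collagen, fell from 78.4 ± 1.93 to 23.9 ± 1.22 CPM (SD, 4 libraries each; adjusted p in edgeR = 3.41e-15), while COL1A2, the other chain of that collagen, had 1 to 12 counts in a library. TAGLN, an actin-binding protein, fell from 27.0 ± 1.45 to 14.6 ± 0.29 CPM (SD, 4 libraries each; adjusted p in edgeR = 4.42e-09). PMEPA1, a feedback inhibitor, and LTBP2, a matrix protein of the latent TGF-beta binding family, fell by 0.58 ± 0.04 and 0.57 ± 0.04 on the log2 scale (SE, with edgeR's adjusted p = 9.21e-11 and 9.21e-10). TGFB2, a ligand, rose from 458 ± 16.5 to 527 ± 12.6 CPM (SD, 4 libraries each; adjusted p in edgeR = 5.29e-05). SMAD7, a direct feedback target, had 12.8 ± 0.78 and 12.2 ± 1.27 CPM (SD, 4 libraries each; adjusted p in edgeR = 0.58). The other 3 genes called higher were SKIL and SKI, which restrain SMAD signalling, and BHLHE40, a transcription factor, with log2 fold changes of 0.31 ± 0.06, 0.32 ± 0.05 and 0.30 ± 0.05 (SE, with edgeR's adjusted p = 0.00035, 1.43e-05 and 3.29e-05). TPM1, a tropomyosin, fell by 0.34 ± 0.03 on the log2 scale (SE, with edgeR's adjusted p = 2.14e-08).

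Genes with the pattern most like a member were found by the Euclidean distance between log2 CPM values centred on their mean over the 8 libraries. The 5 nearest to SPP1 were C4A, HHLA2, CP, PDZK1IP1 and CNR1, at distances of 0.515 to 0.613. CP, which encodes ceruloplasmin, stood at 63.3 ± 13.9 and 388 ± 28.2 CPM, and CNR1, the cannabinoid receptor CB1, at 9.90 ± 1.64 and 60.5 ± 8.89 CPM (SD, 4 libraries each). C4A has a near-identical copy, C4B, and how reads were split between these genes is uncertain. The 5 nearest to FN1 were AC080038.1, COL4A5, KIAA1549, LYPD3 and DOCK4, at distances of 0.273 to 0.334. COL4A5, a basement membrane collagen chain, stood at 17.9 ± 0.68 and 7.85 ± 0.71 CPM (SD, 4 libraries each). For SPARC the 5 nearest were AL451123.1, TGFBR3, GPR27, BAMBI and the fellow member VCAN, at distances of 0.238 to 0.330. TGFBR3, the TGF-beta coreceptor betaglycan, stood at 6.59 ± 0.58 and 19.2 ± 0.94 CPM, and BAMBI, a pseudoreceptor for the same ligands, at 28.0 ± 1.68 and 71.0 ± 2.21 CPM (SD, 4 libraries each). With 2 groups, any gene with a similar fold change and low scatter comes near by this measure.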

How the data were processed

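TRIzol RNA of 8 CFPAC-1 samples was sequenced (Illumina NextSeq), per the labels' protocols. The authors deposited 1 table of RSEM estimated counts per gene, not scaled between samples. Per the submitters' processing notes the tools were cutadapt, STAR, RSEM and DESeq2 and the build was hg38, while annotation release, versions and strand are not given in the sources used here. All columns were assigned by the name in the sample titles. Estimated counts were rounded, and edgeR 4.0.16 (filterByExpr, TMM factors, glmQLFit and glmQLFTest, group as the single term) was fitted to all genes, with Benjamini-Hochberg adjustment over the 14785 tested and a threshold of 0.05. Standard errors were taken as the absolute log2 fold change over the root of the F statistic. CPM uses TMM-scaled totals of the tested genes. The fit was also run on simulated data with few changed genes and the same scatter for all genes. That setting is simpler than these data, so nothing is concluded from it. Positions and transcript lengths come from GENCODE release 44 on GRCh38, matched by Ensembl identifier, and promoters from RefSeq.

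Pairs of libraries within a group differed by more than counting noise (chi-square per degree of freedom 2.15 to 5.04 over 12 pairs), so none was treated as a duplicate. Precision is limited by counts for scarce genes, and intervals cover counting error only. The members and the lists were chosen with earlier results of these data known. The genes named were all members, up to 4 genes per list with the largest absolute log2 fold change among those called, ITGAV, ITGA5, ITGB1, ESRP1 and ESRP2, the 5 nearest patterns of SPP1, FN1 and SPARC, and ADRA2A. FSTL1, TNXB, CCN2, ITGB6, CHPF, TGFB2, SMAD7, SKIL, SKI, BHLHE40, TPM1 and the named cell type markers were added after their values were seen, as were the gene families at 0. Alternatives were DESeq2 1.42.0, RLE or upper quartile factors, no filter, a mean of at least 50 counts, a replicate block and fits without 1 library. Protein sequences were not used here.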

Additional observations from a re-analysis of the deposited data

Results flagged for a closer look

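In 6 of 135 groups of 4 libraries, over 69 genes, 1 library lay apart from the other 3 by more than Dixon's 95% critical value, where chance gives about 1 in 20. TNC was at 136 CPM in ADRA2A replicate 1 and at 125 to 126 CPM in the other ADRA2A libraries, and without that library its log2 fold change was -1.13 in place of -1.10. CHSY3 was at 0.484 CPM in ADRA2A replicate 1 and at 1.20 to 1.32 CPM in the others. Without that library the log2 fold change of CHSY3 was -1.45 (edgeR adjusted p = 7.61e-05) in place of -1.67. TAGLN was at 24.9 CPM in empty-vector replicate 4 and at 27.6 to 28.0 CPM in the others. AL451123.1 was at 0.755 CPM in empty-vector replicate 3 and at 0.586 to 0.611 CPM in the others. PECAM1 was at 1.22 CPM in empty-vector replicate 2 and at 0.589 to 0.644 CPM in the others, and without that library its log2 fold change was 1.95 in place of 1.66. SKI was at 92.5 CPM in empty-vector replicate 3 and at 81.3 to 82.8 CPM in the others.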

How the results depend on the processing

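All 8 tested members kept their direction under the 14 alternatives, save that SPOCK1 could not be fitted with a mean of at least 50 counts because it did not pass. The log2 fold change of SPP1 lay between 2.64 and 2.72, that of SPARC between 1.36 and 1.48, that of VCAN between 1.35 and 1.42, that of FN1 between -1.34 and -1.22 and that of TNC between -1.14 and -1.07 when single libraries were left out, and that of SPOCK1 between -0.62 and -0.18. The number of genes called, 6314, lay between 5823 (DESeq2) and 6550 (no filter), and between 5703 and 6042 with 1 library left out. The count of relatives called higher lay between 0 and 1 over the fits without 1 library, the 1 being FSTL1 without empty-vector replicate 2 (edgeR adjusted p = 0.0357). Modifying enzymes called lower numbered 1 with a mean of at least 50 counts and between 1 and 2 without 1 library (1 without empty-vector replicate 2). Chondroitin sulfate genes called lower numbered 2 with no filter and 3 with a mean of at least 50 counts, and between 2 and 5 without 1 library. The cause of these shifts was not tested. ITGB6, close to 0 throughout, had a log2 fold change of -0.012 with upper quartile factors and between -0.022 and 0.046 without 1 library. With the replicate block 6400 genes were called. Same-numbered samples of the groups deviated with correlations between -0.04 and 0.07, and 2 of 8 samples correlated best with their own number, so the numbers were not taken as pairs. Under the block the adjusted p-value of DSE was 0.0506 (edgeR), and no other named list gene lost its call.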
